A study of Mus musculus with 4 samples.

Results

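Plasminogen activators, serpins and lysosomal cysteine cathepsins were followed in mouse embryonic fibroblasts with and without added NSD2. The rule names 9 genes, Plat, Plau, Plaur, Serpine2, Serpinf1, Serpinb6a, Ctsk, Ctsl and Ctsb, and takes every probe whose platform annotation carries one of these symbols. Of these, 8 had a probe, 1 each, among 25697 probes and 16593 named genes on the array. No probe was named for Serpine2 (protease nexin-1, a serpin that blocks thrombin and both plasminogen activators), which was not analysed here. Of the 8 probes, 6 lay above background on all 4 arrays, and those of Plat and Ctsl on 0 arrays.

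All cells came from p19ARF-/- mice, so the control cells lack p19ARF too. p19ARF, encoded by Cdkn2a, keeps MDM2 from degrading p53. The control group carried a control vector and the other group wild-type NSD2, a methyltransferase of histone H3 lysine 36, by stable transduction and with no further treatment. Each group held 2 Illumina bead arrays (n = 2), although the design text speaks of triplicates. Nothing in the labels says whether replicates came from separate cultures or whether the transduced cells were clones. The p-values below cover only the spread between arrays like these 4, which may be technical. They, the SEs and the intervals use a moderated variance, which draws each probe's own spread towards that of all probes. For Ctsk the SDs were 0.031 (control vector) and 0.014 (NSD2), while the SE was 0.20. The tissue entry of the labels is not one for embryonic fibroblasts. Of 9 fibroblast marker genes with a probe, 8 were above background on all 4 arrays, Col1a1, Col1a2, Col3a1 and Vim among them, and Pdgfrb on 1 array. Of 9 macrophage and osteoclast markers only Cd14 was above background on at least 2 arrays, and of 7 endothelial markers only Flt1 and Kdr were. Of 6 epithelial markers 5 were, with Krt14, Krt18, Krt8 and Krt19 above background on all 4 arrays. The median signal of an array lay between 164 and 204, and 42.3% to 45.9% of its probes were above background. Precision is limited throughout by there being 4 arrays.

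Plasminogen activators are secreted serine proteases that cut plasminogen into plasmin, which degrades fibrin and activates matrix metalloproteinases. The urokinase receptor holds urokinase at the cell surface. Many serpins inhibit serine proteases by trapping them in a covalent complex, while others have lost this activity. Cysteine cathepsins are papain-like proteases that work mainly in lysosomes, and some are secreted and digest collagen. Fibroblasts use all of these systems in turnover of the pericellular matrix.

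None of the 8 genes passed the test for a difference between cells with NSD2 and control cells. In the limma fit over all probes, 0 had an adjusted p under 0.05 (Benjamini-Hochberg) and 0 an unadjusted p under 0.05. Over all 16593 genes the shares were 0.0241% (4 genes, all higher with NSD2) and 3.91%. All 6 genes above background had lower means with NSD2, by 0.0023 to 0.14 on the log2 scale, but that of Serpinb6a turned with median scaling and those of all but Ctsk turned when 1 array was left out. Their median log2 fold change was -0.088, beside -0.0037 over the 6902 genes above background on all 4 arrays, of which 50.8% had lower means. These genes share arrays and normalization, so their common sign is a description. The 95% intervals of the 6 differences together ran from 0.665-fold to 1.36-fold, so a 2-fold change in either direction lay outside each of them. Differences inside an interval could not be told from 0 with 2 arrays per group. The width of these intervals draws on the spread of all probes, and the replicates may be technical. They therefore do not bound the effect of NSD2 in independent cultures. The width also depends on the offset: for Plau the SE was 0.23, and 0.29 with an offset of 16.

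**Figure D1:**
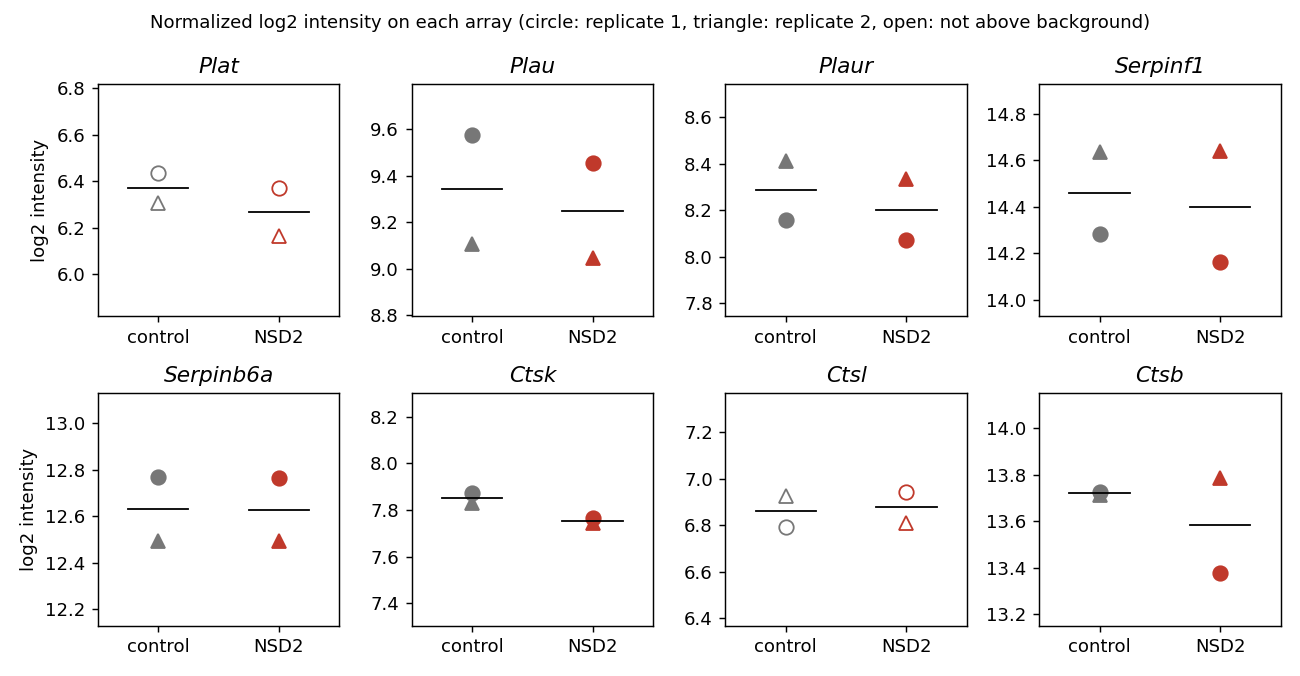
Normalized log2 intensity (vertical axes, each spanning 1 log2 unit) of the 8 genes on each array, with control vector in grey and NSD2 in red, replicate 1 as circles, replicate 2 as triangles and group means as lines. Open symbols are arrays on which the probe was not above background, which holds for Plat and Ctsl throughout. Only the Ctsk values of the groups do not overlap. Of the genes above background, Plau, Plaur, Serpinf1 and Serpinb6a separate by replicate number, as do the Plat values, which are not above background.

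The urokinase gene Plau encodes the plasminogen activator that acts at the cell surface. Its normalized log2 intensity was 9.58 and 9.11 in the control cells, for replicates 1 and 2 in this order, and 9.45 and 9.05 with NSD2. The first array of each group was the higher, and the groups overlapped. The log2 fold change was -0.092 ± 0.23 (SE, 95% interval -0.58 to 0.39, limma adjusted p = 0.9996). Before normalization the Plau signal was 690 and 736 in control cells and 621 and 726 with NSD2, that is 3.36 to 3.99 times the background threshold of each array. The difference between replicate 2 and replicate 1, averaged over both groups, was -0.44, against -0.092 between groups.

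Plaur encodes the urokinase receptor, a protein tethered to the membrane by a lipid anchor. It stood at 8.16 and 8.41 in control cells and at 8.07 and 8.33 with NSD2. Here the second array of each group was the higher, the reverse of Plau, and the groups overlapped. The log2 fold change was -0.085 ± 0.21 (SE, 95% interval -0.53 to 0.36, limma adjusted p = 0.9996). Within each replicate number the NSD2 array was lower, by differences of -0.088 and -0.081, and for Plau by -0.12 and -0.061.

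Plat encodes the tissue-type plasminogen activator, which acts mainly on fibrin. Its signal was 148 and 168 in control cells and 136 and 129 with NSD2, that is 0.709 to 0.801 times the background threshold. The probe thus gave no measurable level in either group, and no fold is given. This concerns the probe's signal and does not show that the transcript was missing.

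Serpinf1 encodes pigment epithelium-derived factor, a secreted serpin that does not inhibit proteases and is known for its anti-angiogenic action. Its log2 intensity was 14.28 and 14.63 in control cells and 14.16 and 14.64 with NSD2, so that the second array of each group was the higher and the groups overlapped. The signal ran from 15378 to 29126, up to 158 times the background threshold. The log2 fold change was -0.058 ± 0.23 (SE, 95% interval -0.54 to 0.42, limma adjusted p = 0.9996). The difference between the groups was -0.12 for replicate 1 and 0.0049 for replicate 2.

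Serpinb6a encodes an intracellular serpin of the B clade, an inhibitor of serine proteases that lacks a secretion signal. It stood at 12.77 and 12.49 with the control vector and at 12.76 and 12.49 with NSD2. Values of the same replicate number were nearly equal, and the log2 fold change was -0.0023 ± 0.21 (SE, 95% interval -0.45 to 0.45, limma adjusted p = 0.9996). At least as large a difference was seen in 99.1% of the genes above background on all 4 arrays. In the RefSeq gene order (GRCm38.p6, used for names and order only) Serpinb6a lies in an unbroken run of 16 Serpinb genes, 14 of which had a named probe. Besides Serpinb6a, Serpinb6b alone of these was above background on all 4 arrays, at 11.76 and 11.88 in control cells and 11.69 and 12.01 with NSD2 (log2 fold change 0.032 ± 0.21). The probes of 11 genes in the run were above background on 0 arrays. The run is made of related genes named Serpinb1, Serpinb6 or Serpinb9 with a letter, and whether a probe also binds a neighbour's transcript was not tested.

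Ctsb encodes cathepsin B, a lysosomal cysteine protease with both endopeptidase and carboxypeptidase activity. Its log2 intensity was 13.72 and 13.71 in control cells and 13.38 and 13.79 with NSD2. The control arrays were nearly equal, and the NSD2 arrays lay on either side of them. The log2 fold change was the largest of the 6 in size, -0.14 ± 0.21 (SE, 95% interval -0.59 to 0.31, limma adjusted p = 0.9996), and 46.4% of the genes above background on all 4 arrays differed by at least as much. Leaving out NSD2 array 1 turned it to 0.060.

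Ctsk encodes cathepsin K, a collagen-degrading protease best known from osteoclasts and also made by fibroblasts. It stood at 7.87 and 7.83 with the control vector and at 7.76 and 7.74 with NSD2. Both NSD2 arrays lay below both control arrays, the only such gap among the 6 genes, and 15.6% of the genes above background on all 4 arrays showed a gap in this direction. The log2 fold change was -0.097 ± 0.20 (SE, 95% interval -0.52 to 0.33, limma adjusted p = 0.9996). Signals were 266 and 343 in control cells and 243 and 309 with NSD2, 1.37 to 1.70 times the background threshold. The offset used in background correction compresses the differences of such dim probes. The osteoclast markers Acp5, Calcr and Ocstamp were above background on 0 arrays.

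Ctsl encodes cathepsin L, a lysosomal endopeptidase. Its signal was 171 and 213 in control cells and 172 and 171 with NSD2, that is 0.925 to 0.975 times the background threshold. The values lay just under the threshold on every array, so no level or fold is given for this probe either.

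**Figure D2:**
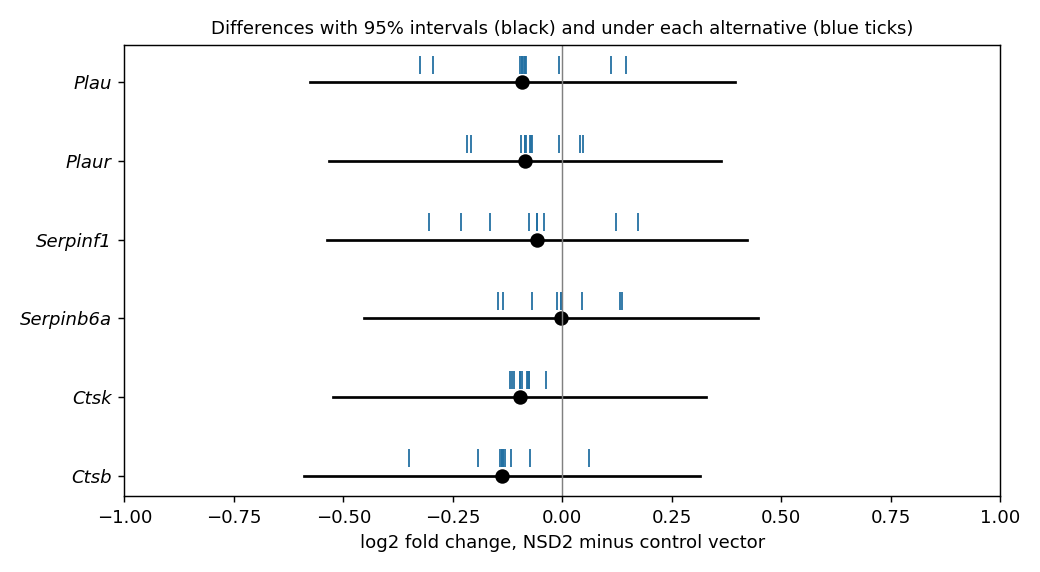
Log2 fold change of the 6 genes above background (horizontal axis, NSD2 minus control vector), with the limma estimate as a black point and its 95% interval as a line. Blue ticks are the values under each alternative, that is other processing, the replicate number as a block and each array left out. Every interval spans 0, and only for Ctsk do all ticks lie on 1 side of 0.

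The spread between arrays of 1 group was larger than the difference between groups for most of these genes. Averaged over both groups, the difference between replicate 2 and replicate 1 ranged in size from 0.032 for Ctsk to 0.44 for Plau, with a median of 0.27, against a median size of 0.088 for the group difference. It exceeded the group difference in 5 of the 6 genes, all but Ctsk, and in 60.0% of the genes above background on all 4 arrays. Its direction was not shared. Plau and Serpinb6a were lower on the second array in both groups, with differences of -0.44 and -0.27. Plaur and Serpinf1 were higher there in both groups, with differences of 0.26 and 0.41. For Ctsb the second array was higher only in the NSD2 group (0.41, against -0.0096 in control cells).

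**Figure D3:**
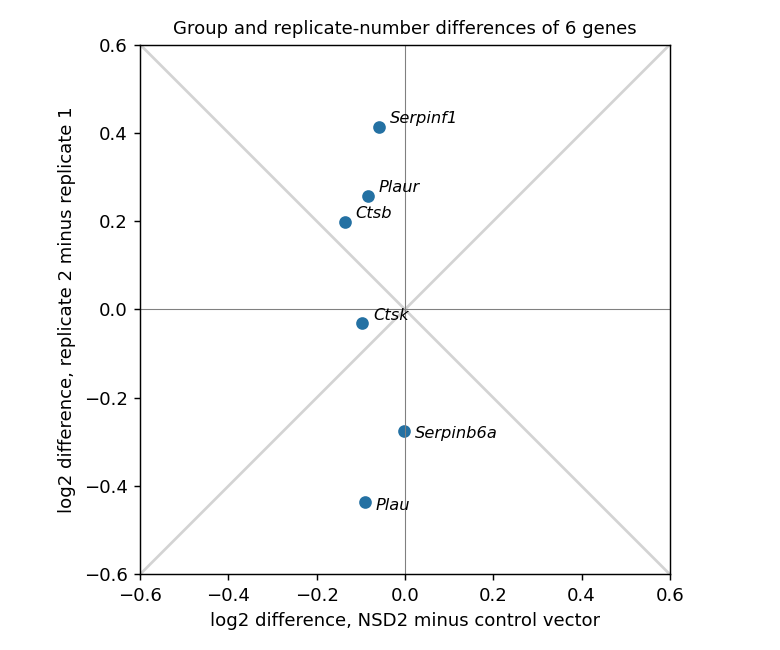
Difference between replicate numbers (vertical axis, log2, replicate 2 minus replicate 1, mean of both groups) against the difference between groups (horizontal axis, log2, NSD2 minus control vector) for the 6 genes above background. The grey diagonals mark equal size, and 5 genes lie in the upper or lower wedge, where the replicate difference is the larger.

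In the authors' processed intensities, 3 of the 6 genes above background, Serpinf1, Ctsb and Ctsk, had both NSD2 values below both control values, against 16.5% of all genes above background on all 4 arrays. The ratio of group means had a median of 0.923 over the 6 genes and of 0.985 over all such genes. Plau was 679 and 480 in control cells and 621 and 458 with NSD2, and Plaur 213 and 270 against 198 and 253. Serpinf1 was 21645 and 23848 in control cells and 19094 and 21463 with NSD2, a ratio of means of 0.892, and the groups were parted by less than the spread within either of them. Serpinb6a was 7205 and 5598 against 7145 and 5123. Ctsb was 14132 and 12686 against 10977 and 12480 (a ratio of 0.875). Ctsk was 163 and 157 against 147 and 145. For a limma fit, negative processed values were set to 0, 50 was added and log2 was taken. The added 50 compresses the differences of dim probes such as those of Plat, Ctsl and Ctsk. In that fit, 0 of the 8 genes passed an adjusted p of 0.05, and 0 had an unadjusted p under 0.05.

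The profiles nearest to the members were taken for the pair with the largest group differences, Ctsb and Ctsk. Likeness was the root mean square difference of mean-centred log2 values over the 4 arrays, among 6902 genes above background on all of them. Nearest to Ctsb were Cybc1 (0.011), Micall2 (0.014) and Zfp93 (0.015). Nearest to Ctsk were Tgfb1 (0.0064), Tmem201 (0.0075) and Mrps24 (0.0096). With 4 arrays and differences this small many genes have like profiles.

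Genes that bind, clear or respond to the plasminogen system were listed apart from the members, and 0 of the 21 with a probe passed the test over all genes. Of 15 above background on at least 2 arrays, 9 had higher and 6 lower means with NSD2, with a median log2 fold change of 0.048 beside -0.0031 over all 7872 such genes. The filter admitted Procr and Mmp3 through the NSD2 arrays alone, so the split and the median are a description only. On all 4 arrays, 12 of the 15 were above background. The largest difference was that of Lrp1, the endocytic receptor that clears complexes of plasminogen activators with their inhibitors. Lrp1 stood at 8.25 and 8.30 in control cells and at 7.51 and 7.83 with NSD2, so the groups did not overlap. Its log2 fold change was -0.61 ± 0.21 (SE, limma adjusted p = 0.9996). Thbd, which encodes the thrombin receptor thrombomodulin, stood at 7.81 and 8.73 against 8.44 and 9.24 and overlapped between groups (0.56 ± 0.29). Procr, the endothelial protein C receptor gene, and Mmp3, the stromelysin-1 gene, were above background on both NSD2 arrays and on neither control array. For these probes the brighter group was set against the lowest measurable value on each control array, which gave ratios of 1.07 and 1.17. These ratios depend on the threshold of each array and are not read as lower bounds. Signals of Procr before normalization were 159 and 193 (control vector), against 188 and 193 (NSD2). Those of Mmp3 were 173 and 200, against 200 and 204. The thresholds were 185 and 219 (control vector), against 178 and 182 (NSD2). The replicate 2 control signal of each probe thus exceeded both NSD2 thresholds. The other Mmp3 probes, above background on 0 arrays, differed by -0.15 and -0.0052. Neither Procr nor Mmp3 passed the test over all genes (limma adjusted p = 0.9996). The plasminogen gene Plg itself, Vtn (vitronectin, a matrix protein that binds the urokinase receptor) and the endocytic collagen receptor gene Mrc2 were above background on 0 arrays.

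Most other serpin genes were not measurable in these cells. Of 47 with a probe, 3 were above background on at least 2 arrays and 42 on 0 arrays, the latter including Serpinb2 (plasminogen activator inhibitor 2) and Serpinf2 (the plasmin inhibitor alpha-2-antiplasmin). The 3 genes had higher means with NSD2, and none passed the test over all genes. Serping1, the C1 inhibitor gene, stood at 6.80 and 7.20 in control cells and at 7.52 and 7.16 with NSD2 (log2 fold change 0.34 ± 0.22), and was above background on 3 arrays. Serpinh1, which encodes the collagen chaperone HSP47, stood at 10.12 and 10.92 against 10.42 and 10.96 (0.17 ± 0.26). The groups overlapped for both genes, and the third gene was Serpinb6b, described above.

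The other cathepsins were split, with 2 higher and 4 lower means among 6 above background on at least 2 arrays, out of 20 with a probe. None passed the test over all genes. Ctsf, a lysosomal cysteine cathepsin gene, stood at 7.11 and 7.10 in control cells and at 7.82 and 7.24 with NSD2. After normalization both NSD2 arrays were higher, 1 of them by far more than the other, and the log2 fold change was 0.43 ± 0.23 (limma adjusted p = 0.9996). Before normalization the Ctsf signal was 193 and 232 in control cells, just above the thresholds of 185 and 219. With NSD2 it was 249 and 223, so this probe too was dim. Ctsa, which encodes the serine carboxypeptidase cathepsin A, stood at 8.48 and 8.39 against 8.30 and 8.30 (-0.13 ± 0.20), and another Ctsa probe above background on 2 arrays differed by -0.14. The remaining Ctsa probes, above background on 0 arrays, differed by 0.24 and 0.071. Ctsc, the gene of dipeptidyl peptidase 1, differed by -0.12 ± 0.21, with -0.21 and -0.16 at its other probes. Ctsz, the cathepsin Z gene, differed by -0.092 ± 0.21, with -0.00035 at its other probe, which was also above background on all 4 arrays. The groups overlapped at both Ctsz probes and at the Ctsc probes with -0.12 and -0.16. At the Ctsc probe with -0.21 they did not overlap.

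Cystatins, the inhibitors of cysteine cathepsins, had 3 genes above background of 11 with a probe, and none passed the test over all genes. The secreted inhibitor gene Cst3 stood at 12.47 and 12.89 in control cells and at 12.28 and 12.91 with NSD2 (log2 fold change -0.086 ± 0.24). The cytosolic inhibitor gene Cstb stood at 14.36 and 14.24 against 14.31 and 14.34 (0.023 ± 0.20), and Cst11 differed by -0.014 ± 0.20. The groups overlapped for all 3 genes at these probes. Cst11 signals, 189 and 224 in control cells and 179 and 192 with NSD2, barely exceeded the thresholds of 185, 219, 178 and 182. Its other probe, above background on 0 arrays, differed by 0.26.

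Genes of lysosomal proteins, which share their compartment with the cathepsins, had 15 of 17 members above background, 8 with higher and 7 with lower means and a median log2 fold change of 0.0059. None passed the test over all genes. The membrane receptor gene Scarb2 stood at 8.38 and 8.09 in control cells and at 8.59 and 8.69 with NSD2 (0.40 ± 0.21), and the tripeptidyl peptidase gene Tpp1 at 8.22 and 8.11 against 8.42 and 8.65 (0.37 ± 0.21). The cation channel gene Mcoln1 stood at 7.61 and 7.26 against 7.17 and 7.05 (-0.33 ± 0.21), and the sialidase gene Neu1 at 9.89 and 9.74 against 9.61 and 9.57 (-0.22 ± 0.20). For these 4 genes the groups did not overlap, Scarb2 and Tpp1 being higher and Mcoln1 and Neu1 lower with NSD2. They were named for their large differences, and over the 15 genes the groups did not overlap in 3 that were higher and 3 that were lower. A gap in either direction was present in 30.7% of the genes above background on all 4 arrays.

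**Figure D4:**
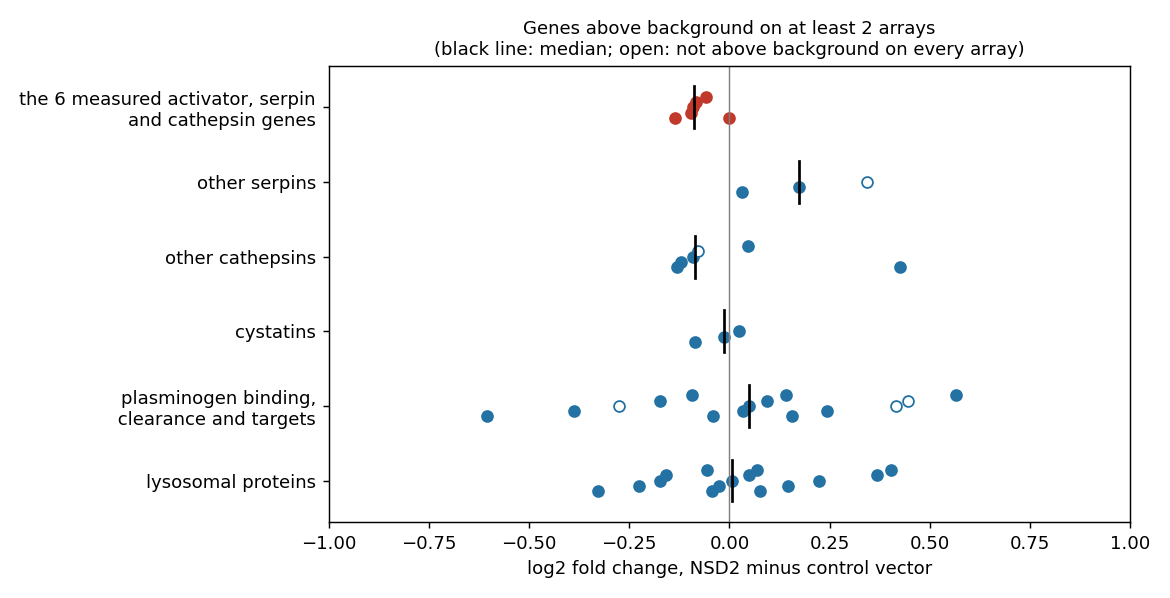
Log2 fold change (horizontal axis, NSD2 minus control vector) of the 6 measured genes in red and of the related lists in blue, 1 point per gene, with the median of each as a black line. The 6 genes lie between -0.14 and -0.0023, and the related lists spread from -0.61 (Lrp1) to 0.56 (Thbd).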

How the data were processed

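Total RNA was amplified, biotin-labelled and hybridised to Illumina mouse bead arrays, per the labels' protocols. The first deposited table holds, per the file headers, the average bead signal, a linear intensity that is neither normalized nor background-subtracted, without detection p-values. The second holds the authors' processed intensity, and how they made it was not given in the sources used here. It keeps the order of the signal, is linear, and has column medians of 48.7 and 42.4 (control vector, replicates 1 and 2) and 48.6 and 42.3 (NSD2, replicates 1 and 2).

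The signal was corrected by normexp (offset 50) and quantile-normalized on the log2 scale, and groups were compared with lmFit and eBayes (limma 3.58.1, R 4.3.3), two-sided, with no covariate. Benjamini-Hochberg adjustment took in all 25697 probes, with a threshold of 0.05. Background was the upper 5% point of the log2 signals below their mode, mirrored about it, 185, 219, 178 and 182 in the array order above. A gene is given by its probe with the highest mean. Symbols came from the platform annotation, and 1719 probes are unnamed here. Groups of 2 allow no exact two-sided p below 0.333.

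All members were described. Of each related list up to 4 genes with the largest differences were named. Members and lists were chosen with earlier results of these data known. The fit was checked on data simulated from its own model with independent arrays. That check does not cover likeness between same-numbered arrays. Alternatives covered background correction, normalization, processed values, filters, moderation, the replicate number and each array left out.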

Additional observations from a re-analysis of the deposited data

How the results depend on the processing

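The count of 0 genes past the threshold held in all 14 alternatives run (limma, smallest adjusted p = 0.909), with 8 genes tested in 12 of them and, under the 2 background filters, 6 without Plat and Ctsl. Leaving out 1 array turned the sign of 5 of the 6 genes above background, with log2 fold changes of -0.32 to 0.15 for Plau, -0.22 to 0.047 for Plaur, -0.31 to 0.17 for Serpinf1, -0.15 to 0.14 for Serpinb6a and -0.35 to 0.060 for Ctsb. The Ctsl probe, on 0 arrays above background, ran from -0.055 to 0.083, and no direction is read from it. In these fits the remaining single array is taken to vary as the other group does. Median scaling gave 0.044 for Serpinb6a. Ctsk kept its sign in 14 of 14 alternatives (-0.12 to -0.037). The count of 4 genes over the whole array became 0 with an offset of 16, with the authors' processed values or when probes had to exceed background on all 4 arrays, 1 with median scaling or over probes above background on at least 2 arrays, 10 with trended robust moderation and 2 to 12 with 1 array left out. In the 3 limma fits with a count of 0, 674, 595 and 236 genes had an unadjusted p under 0.05. With the replicate number as a block it was 37, and 0 of the 8 genes passed (smallest limma adjusted p = 0.932). Deviations of same-numbered arrays from their group means correlated at 0.24 over all probes and at 0.52 over the 9779 probes above background on all 4 arrays. The labels do not say that a number marks a shared culture or day, so the block gives no stronger evidence. Signal near background limits what could be seen of Plat, Ctsl and Ctsk.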
